A study of Mus musculus with 8 samples.

Results

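The genes described here are 44 genes of protein folding in the endoplasmic reticulum (ER) and of the unfolded protein response, taken by symbol from a list of the pathway. All 44 were found among the 55523 entries of the count table and all 44 were among the 20152 genes with enough counts to be tested. They were measured by RNA-seq in pituitary cells of mice that carry Ad4BP-BAC-EGFP, a transgene in which EGFP follows the gene for Ad4BP/SF-1 (Nr5a1), the nuclear receptor that among pituitary cells marks gonadotropes. EGFP-positive cells were sorted from 4 female and 4 male samples, which the study set against whole pituitary within each sex; the comparison of the sexes is made here. All samples came from mice with the transgene, and neither a treatment nor an age is given in the labels. Male replicate 1 stood apart from the other samples and did not enter the comparison, which set male replicates 2 to 4 (n = 3) against female replicates 1 to 4 (n = 4). The study also set this sample aside. The values of male replicate 1 are given separately throughout.

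The ER lumen is where secreted hormones are folded. Chaperones of the HSP70 and HSP90 families, lectin chaperones that hold glycoproteins, and disulfide isomerases assist folding, and proteins that fail to fold are exported and degraded (ER-associated degradation, ERAD). When unfolded proteins accumulate, the membrane sensors IRE1 (*Ern1*), PERK (*Eif2ak3*) and ATF6 (*Atf6*) start the unfolded protein response, in which the transcription factors XBP1, ATF4 and ATF6 raise the transcription of folding and degradation genes, many of them through an ER stress element in the promoter. Gonadotropes secrete the glycoprotein hormones LH and FSH, whose subunits need glycosylation and disulfide bonds.

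Total counts were 18774578 to 31302588 per sample, and 3 counts corresponded to 0.0921 to 0.146 CPM (counts relative to library size, scaled with TMM factors over the 8 samples). The gonadotrope markers *Lhb*, *Fshb*, *Cga*, *Gnrhr* and *Nr5a1* summed to 21488 to 34863 CPM in females and 67930 to 75717 CPM in the 3 males compared, but did not move together. *Fshb* was at 1402 to 5699 CPM in females and 16894 to 30905 CPM in the 3 males, whereas *Nr5a1*, the gene that the EGFP of the sort follows, was lower in these males without overlap (862 to 1266 CPM and 584 to 801 CPM). *Lhb*, *Cga* and *Gnrhr* overlapped between the sexes.

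The library labelled male replicate 1 went against its label in the sort marker. *Nr5a1* was at 16.3 CPM there and 584 to 1266 CPM in the other 7 samples, while its *Lhb*, at 9337 CPM, was within the range of the other males. *Gnrhr*, at 473 CPM, and *Cga*, at 12836 CPM, were below all 7 other samples. *Fshb*, at 5760 CPM, was below the other males. The nuclear RNAs *Malat1* and *Neat1* summed to 110438 CPM in this library.

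The summed levels of some markers of other cells differed between the sexes as well. The somatotrope markers *Gh* and *Ghrhr* summed to 12397 to 57867 CPM in females and 65338 to 142305 CPM in the 3 males, and the thyrotrope markers *Tshb* and *Trhr* to 21.4 to 85.2 CPM and 238 to 345 CPM. edgeR's quasi-likelihood test called 0 of 2 somatotrope markers (0 at an unadjusted p under 0.05, 0 by DESeq2; *Ghrhr* overlapped) and 0 of 2 thyrotrope markers (2 higher at an unadjusted p under 0.05, 1 by DESeq2). The stem cell markers *Sox2*, *Sox9* and *Aldh1a2* summed to 302 to 533 CPM in females and 214 to 271 CPM in males, with 1 of 3 called lower by the same test and *Aldh1a2* overlapping. The nuclear RNAs summed to 12219 to 15202 CPM and 7819 to 10039 CPM, nearly all of it *Malat1*, while *Neat1* overlapped (29.9 to 77.3 CPM and 29.3 to 41.0 CPM). Of these 2, 1 was lower at an unadjusted p under 0.05 (0 called by the same test, 1 by DESeq2). The 4 stromal markers summed to 65.3 to 118 CPM in females and 59.0 to 70.1 CPM in males, with overlap. Of them, 3 were lower at an unadjusted p under 0.05 (0 called by the same test, 2 by DESeq2). There was no overlap for *Col1a1* (5.37 to 13.1 CPM in females and 2.95 to 4.27 CPM in males) and *Col3a1* (6.93 to 9.54 CPM and 1.93 to 4.45 CPM). *Pdgfrb* overlapped, as did *Dcn*, the most abundant of the 4 (32.3 to 77.8 CPM and 45.8 to 52.4 CPM). The summed levels of the lactotrope, corticotrope and melanotrope, endothelial, immune and erythroid markers overlapped between the sexes. The 9 genes listed for the response to cell dissociation summed to 15161 to 20947 CPM in females and 17950 to 22365 CPM in males, with overlap. The same test and DESeq2 called 0, and 1 was lower and 0 higher at an unadjusted p under 0.05. *Egr1* was lower in males without overlap (2073 to 2874 CPM and 1516 to 1937 CPM), and *Hspa1a* overlapped. None of these markers was at 0 in any sample. The part of these differences in the results below was not tested, and in bulk samples a different share of a cell type and a different RNA level per cell cannot be told apart.

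The ER stress element, through which ATF6 and XBP1 act, was searched for in the promoters of the module, and the sequences that matched are shown because they are what several of these genes share beside their function. The element is known from genes on this list, so its share among them describes the list and is no independent finding. Promoter sequences (250 bases before to 50 bases after the gene start, RefSeq, GRCm38.p6) were matched for 36 of the 44 genes, and *Manf*, *Sec61a1*, *Hyou1*, *Atf6*, *Creb3l1*, *Ppp1r15b*, *Erlec1* and *Derl1* had no entry. On either strand, the element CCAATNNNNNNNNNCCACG was found in 9 of 36 genes (25.0%), against 37 of 27025 genes (0.137%) in the whole table. A second form of the element, ATTGGNCCACG, was found in 2 of 36 genes (*Herpud1* and *Dnajb11*), against 12 of 27025 (0.0444%). The part CCAAT alone was found in 75.0% of the 36 genes and 41.1% of all genes, and the part CCACG alone in 69.4% and 35.5%; these counts include the promoters with a complete element. Each match is a run of letters and not evidence of binding.

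The matches before the gene start are listed with 5 flanking bases on each side, read 5′ to 3′ on the strand of the match, with the fixed letters of the element in capitals. The spacer of 9 bases differs among the genes.
Hspa5: cttcaCCAATcggaggcctCCACGacggg
Hsp90b1 (distal): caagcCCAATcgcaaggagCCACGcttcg
Hsp90b1 (proximal): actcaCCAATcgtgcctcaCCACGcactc
Dnajc3: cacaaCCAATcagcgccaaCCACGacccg
Creld2: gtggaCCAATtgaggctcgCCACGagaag
Calr: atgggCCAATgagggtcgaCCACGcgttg
Canx: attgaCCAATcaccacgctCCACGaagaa
Pdia6: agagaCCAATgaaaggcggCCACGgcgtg
Herpud1: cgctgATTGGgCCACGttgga
Syvn1: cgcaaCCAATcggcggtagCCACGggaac
Derl3: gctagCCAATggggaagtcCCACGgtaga

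The element of *Hspa5* lay at chr2:34772025-34772043 on the plus strand, 47 bases before the gene start, and that of *Pdia6* at chr12:17266491-17266509, 80 bases before it. *Hsp90b1* held the element in both orientations, at chr10:86705638-86705656 and chr10:86705533-86705551, 194 and 89 bases before its start. The other matches lay 26 (*Syvn1*) to 144 (*Calr*) bases before the start, and the second form in *Herpud1* lay 42 bases before it. The *Dnajb11* match to the second form lay after the start and is not printed.

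**Figure D1:**
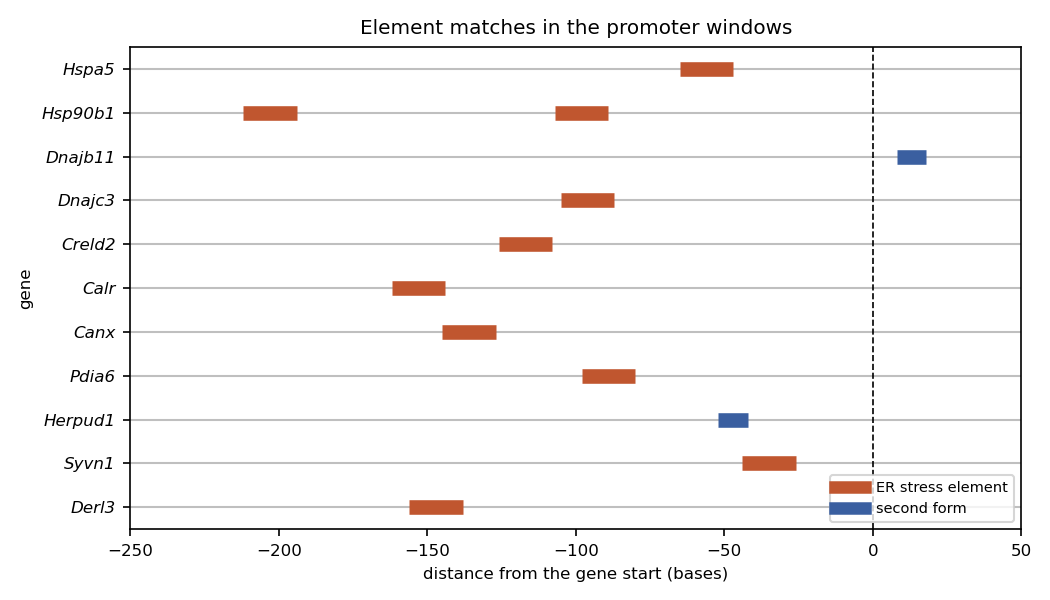
Position of the matches to the ER stress element (orange) and to its second form (blue) in the 300-base promoter windows of the 11 genes that held either, by distance from the gene start in bases. The complete elements all lay before the start, between 212 and 26 bases from it, and *Hsp90b1* held 2 of them.

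The 220 bases before the start are printed for *Hspa5* and *Hsp90b1*, the genes of the major HSP70 and HSP90 chaperones of the ER, to show the element in place. Each is given 5′ to 3′ on the strand of the gene (*Hspa5*, plus strand, chr2:34771870-34772089; *Hsp90b1*, minus strand, chr10:86705445-86705664), with the element's fixed letters in capitals. In the proximal *Hsp90b1* match the letters are the reverse complement, since it lies on the other strand. Starts are those of RefSeq, and the GENCODE models of both genes begin further upstream, within these windows.
Hspa5 promoter: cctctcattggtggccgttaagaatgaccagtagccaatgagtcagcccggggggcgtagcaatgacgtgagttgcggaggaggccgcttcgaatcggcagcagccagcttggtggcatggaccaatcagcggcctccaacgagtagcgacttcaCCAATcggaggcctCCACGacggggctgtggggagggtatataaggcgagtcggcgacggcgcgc
Hsp90b1 promoter: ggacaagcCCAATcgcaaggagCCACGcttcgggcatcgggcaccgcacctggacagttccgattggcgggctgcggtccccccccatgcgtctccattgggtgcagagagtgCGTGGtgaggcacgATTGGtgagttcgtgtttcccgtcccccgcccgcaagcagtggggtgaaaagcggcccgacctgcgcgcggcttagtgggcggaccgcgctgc

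Part of the folding machinery was more abundant as RNA in male than in female gonadotropes. Of the 44 genes, 5 rose in males at an adjusted p under 0.05 in edgeR's quasi-likelihood test with Benjamini-Hochberg adjustment over all genes tested, namely the chaperone genes *Hsp90b1*, *Dnajb9* and *Creld2* and the disulfide isomerase genes *Pdia3* and *Pdia6*, and 0 of 44 fell. This is 11.4% of the genes, where 0.983% of all genes tested were called higher and 1.35% lower. At an unadjusted p under 0.05, 15 of 44 (34.1%) were higher and 0 lower, against 9.31% and 10.6% of all genes tested, and DESeq2 called 14 of 44 higher and 0 lower, against 5.29% and 6.27%. The median log2 fold change of the 44 genes was 0.44, beside -0.03 over all genes tested, and 35 of 44 were positive, beside 47.9% of all genes tested. The summed level of the 44 genes was 8490 to 9411 CPM in the 4 females and 15480, 15595 and 10180 CPM in male replicates 2, 3 and 4. The groups did not overlap on this scale, but as a share of the raw counts male replicate 4, at 0.905%, lay within the 0.894% to 0.980% of the females, with 1.40% and 1.44% in male replicates 2 and 3.

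**Figure D2:**
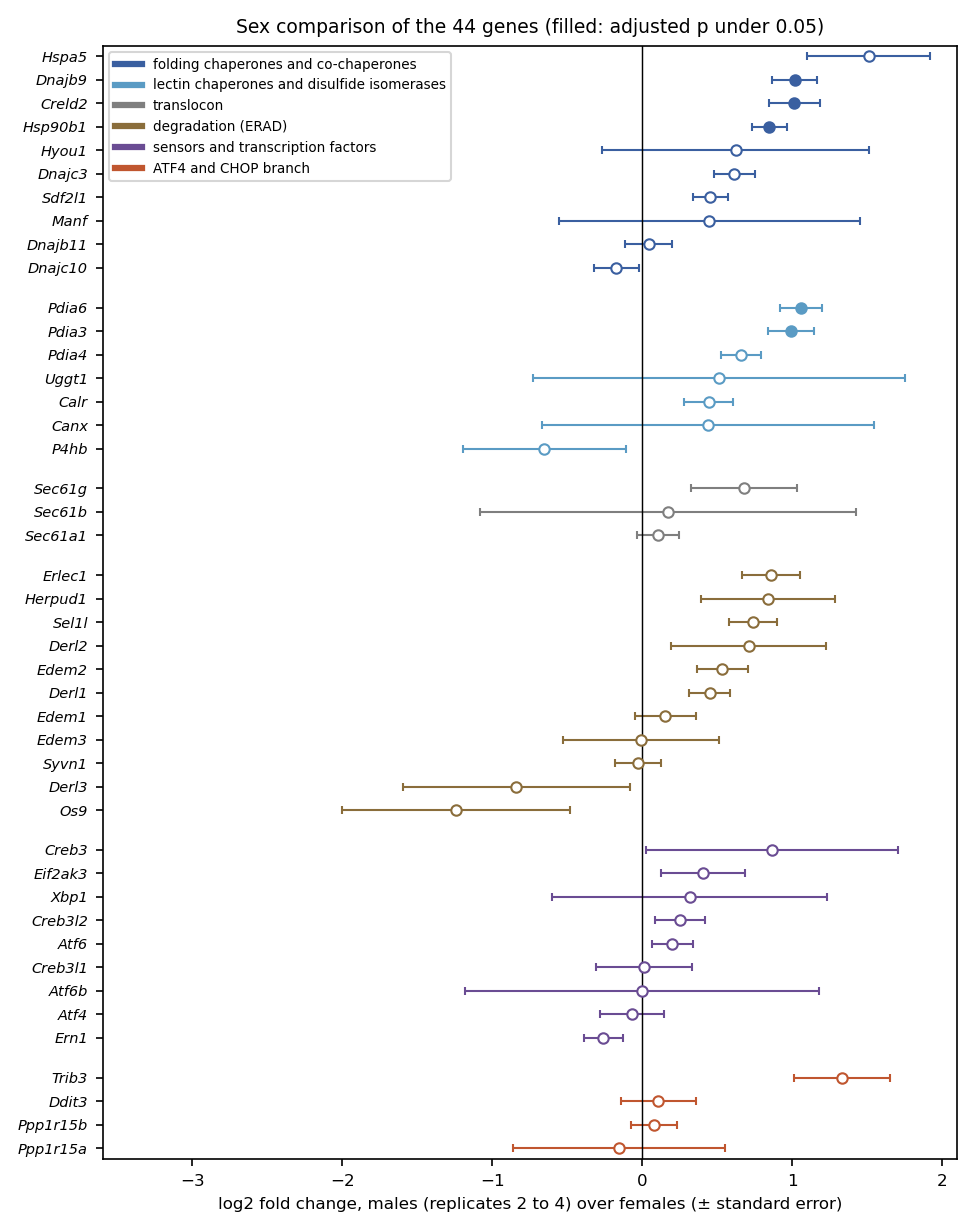
Log2 fold change of males (replicates 2 to 4) over females with its standard error for each of the 44 genes, grouped by role, with filled points for an adjusted p under 0.05. The 5 filled points lie between 0.85 and 1.06, all among chaperones and disulfide isomerases, while the sensors and transcription factors lie around 0 or carry wide errors.

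The folding chaperones and their co-chaperones made up 10 of the genes, of which 3 rose in males and 6 were higher at an unadjusted p under 0.05. *Hsp90b1* (GRP94, the HSP90 chaperone of the ER; chr10:86690209-86705509, minus strand) was at 424, 395, 457 and 467 CPM in female replicates 1 to 4 and 859, 817 and 731 CPM in male replicates 2 to 4. The 3 males lay above all 4 females and each sex varied little, and the mean rose 1.84-fold (log2 fold change 0.85, SE 0.11, edgeR's quasi-likelihood adjusted p = 0.0254; two-sided exact permutation p = 0.0286, the smallest that 35 arrangements can give). *Dnajb9* (ERdj4, a J-domain co-chaperone of BiP; chr12:44205559-44210326, minus strand) was at 182, 170.2, 206 and 140.3 CPM in females and 368, 386 and 329 CPM in males. Its sexes did not overlap either, with a 2.07-fold higher mean in males (log2 fold change 1.02, SE 0.15, edgeR's quasi-likelihood adjusted p = 0.0302). *Creld2*, which codes for a stress-inducible ER protein (chr15:88819646-88826683, plus strand), was at 47.3, 33.9, 49.7 and 43.2 CPM in females and 81.2, 100.04 and 88.3 CPM in males. This was a 2.06-fold difference with no overlap (log2 fold change 1.02, SE 0.17, edgeR's quasi-likelihood adjusted p = 0.0385).

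*Hspa5*, which encodes BiP, the HSP70 chaperone of the ER lumen (chr2:34771970-34777547, plus strand), had a larger estimate than any of the 5 called genes, and a larger error. It was at 1158, 1263, 447 and 1441 CPM in females and 3596, 3835 and 2041 CPM in males. The groups did not overlap, but female replicate 3 lay far below the other females and male replicate 4 below the other males. The mean was 2.93-fold higher in males, with a log2 fold change of 1.51 (95% confidence interval 0.54 to 2.48) that missed the threshold in edgeR's quasi-likelihood test (adjusted p = 0.103) and passed it in DESeq2 (adjusted p = 0.0120). The two-sided exact permutation p was 0.0286.

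*Dnajc3* and *Sdf2l1* missed the threshold in edgeR's quasi-likelihood test and passed it in DESeq2. *Dnajc3*, a BiP co-chaperone gene that is also known as an inhibitor of PERK, was at 186, 145, 167 and 166 CPM in females and 271, 285 and 224 CPM in males (log2 fold change 0.61, edgeR's quasi-likelihood adjusted p = 0.0686, DESeq2 adjusted p = 0.00190). *Sdf2l1*, which codes for a partner of the co-chaperone ERdj3, was at 279, 251, 301 and 286 CPM in females and 379.7, 430.5 and 363 CPM in males (log2 fold change 0.45, edgeR's quasi-likelihood adjusted p = 0.0905, DESeq2 adjusted p = 0.00437). Neither overlapped between the sexes. *Dnajb11*, the gene of ERdj3 itself, was at 63.0 to 82.2 CPM in females and 65.3 to 88.4 CPM in males, and its log2 fold change of 0.04 had a 95% confidence interval of -0.32 to 0.41. *Dnajc10*, which codes for the reductase ERdj5, had a log2 fold change of -0.17 (95% confidence interval -0.53 to 0.18).

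Of the 7 lectin chaperones and disulfide isomerases, 2 rose in males and 4 were higher at an unadjusted p under 0.05. *Pdia3* (ERp57, the isomerase that works with calnexin and calreticulin on glycoproteins; chr2:121413775-121438687, plus strand) was at 484, 443, 564 and 521 CPM in females and 998, 1231 and 848 CPM in males. *Pdia6* (chr12:17266545-17284770, plus strand) was at 209, 189, 252 and 199 CPM in females and 476, 486 and 394 CPM in males. In both genes all males lay above all females, with means 2.04-fold and 2.13-fold higher. The log2 fold changes were 0.995 (SE 0.15, edgeR's quasi-likelihood adjusted p = 0.0337) for *Pdia3* and 1.06 (SE 0.14, adjusted p = 0.0232) for *Pdia6*.

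*Pdia4* and *Calr* showed smaller differences. *Pdia4*, another isomerase gene, was at 138, 153, 161 and 155.5 CPM in females and 266, 262 and 207 CPM in males (log2 fold change 0.66, edgeR's quasi-likelihood adjusted p = 0.0550, DESeq2 adjusted p = 0.000251). *Calr*, the gene of the soluble lectin chaperone calreticulin, was at 923, 630.2, 708 and 895 CPM in females and 1174, 1121 and 997 CPM in males (log2 fold change 0.44, unadjusted p = 0.0298 and adjusted p = 0.198 in edgeR's quasi-likelihood test). The sexes did not overlap in either gene. The remaining members of this group, *Canx*, *Uggt1* and *P4hb*, were tested without a call, varied widely within a sex and are described with the other genes of that kind.

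**Figure D3:**
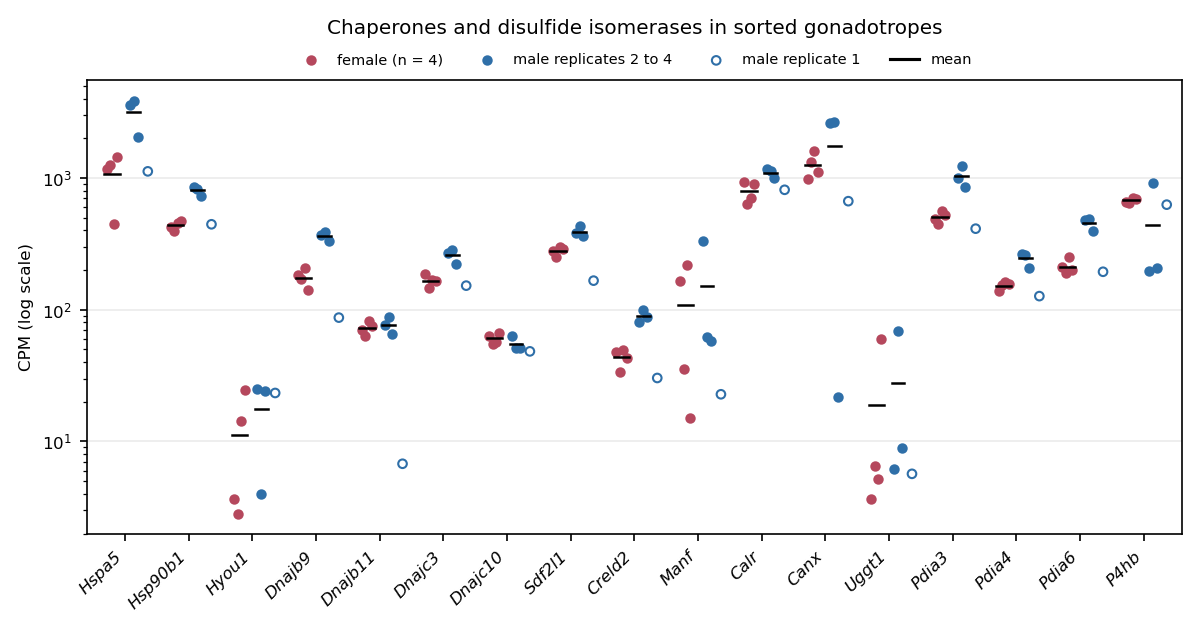
Level in CPM (log scale) of the 17 genes of folding chaperones, lectin chaperones and disulfide isomerases in each female (red), in male replicates 2 to 4 (blue) and in male replicate 1 (open), with the mean of each sex as a bar. The males lie above the females for *Hspa5*, *Hsp90b1*, *Dnajb9*, *Creld2*, *Pdia3* and *Pdia6*, and male replicate 1 lies near or below the females for these genes.

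The calls rested on few samples. With 1 sample left out at a time, the log2 fold changes of the 5 called genes stayed between 0.81 and 1.17, but their adjusted p in edgeR's quasi-likelihood test ranged from 0.0293 to 0.135. None of the 5 was still called without female replicate 2, male replicate 2 or male replicate 3; 2 were called without female replicate 1, 3 or 4; and 3 were called without male replicate 4. Without male replicate 3, *P4hb* was called lower in males instead. With male replicate 1 included, 0 of the 44 genes were called.

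In the translocon, the channel through which new proteins enter the ER, 0 of 3 genes were called by edgeR's quasi-likelihood test, with 0 at an unadjusted p under 0.05 and 0 called by DESeq2. *Sec61a1*, the pore subunit gene, was at 159 to 215 CPM in females and 200.2 to 212 CPM in males (log2 fold change 0.11, 95% confidence interval -0.22 to 0.44). *Sec61g*, a small subunit gene, was at 7.74 to 21.4 CPM in females and 17.5 to 24.9 CPM in males, with overlap.

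In ERAD, edgeR's quasi-likelihood test called 0 of 11 genes, while 4 were higher and 0 lower at an unadjusted p under 0.05, and DESeq2 called the same number, 4. These 4 were *Sel1l*, *Edem2*, *Derl1* and *Erlec1*, and in each the males did not overlap the females. *Sel1l*, the gene of the adaptor of the HRD1 ubiquitin ligase, was at 167, 217, 205 and 190.4 CPM in females and 367, 366 and 266 CPM in males (log2 fold change 0.74, edgeR's quasi-likelihood adjusted p = 0.0663). *Syvn1*, the gene of HRD1 itself, was at 28.7 to 35.6 CPM in females and 29.2 to 34.8 CPM in males. Its log2 fold change was -0.03 (95% confidence interval -0.39 to 0.34), beside an interval of 0.36 to 1.12 for *Sel1l*. The difference between these partners was not tested.

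The other ERAD genes with an unadjusted p under 0.05 act at several steps. *Erlec1*, which codes for a lectin that recognises glycans on proteins to be degraded, was at 56.9, 44.8, 50.1 and 55.6 CPM in females and 84.2, 125 and 79.1 CPM in males (log2 fold change 0.86, edgeR's quasi-likelihood adjusted p = 0.0721). *Edem2*, of the mannose-trimming EDEM family, was at 37.8, 34.1, 38.4 and 26.5 CPM in females and 48.1, 55.8 and 47.9 CPM in males (log2 fold change 0.53, edgeR's quasi-likelihood adjusted p = 0.150). *Derl1*, of the derlins of the export channel, was at 116, 121, 145 and 149.5 CPM in females and 178, 181 and 196 CPM in males (log2 fold change 0.45, edgeR's quasi-likelihood adjusted p = 0.141). In these 3 genes every male lay above every female. *Edem1* overlapped between the sexes, at 18.9 to 30.2 CPM in females and 25.4 to 29.7 CPM in males. *Herpud1*, a gene of the HRD1 complex that is strongly induced by ER stress, spread over 111 to 286 CPM in females and 166 to 560 CPM in males, and its log2 fold change of 0.84 had a 95% confidence interval of -0.22 to 1.90. *Derl3* was at 1.21 to 7.78 CPM in females and 1.18 to 3.36 CPM in males.

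The sensors and transcription factors that control the response gave no call. Among these 9 genes, edgeR's quasi-likelihood test called 0, with 0 at an unadjusted p under 0.05, and DESeq2 called 0. *Ern1*, the gene of IRE1, was at 71.8, 61.5, 72.4 and 73.4 CPM in females and 60.6, 57.2 and 60.9 CPM in males. The 3 males lay below all 4 females, by little (log2 fold change -0.26, 95% confidence interval -0.56 to 0.04, edgeR's quasi-likelihood adjusted p = 0.323; two-sided exact permutation p = 0.0571). *Atf6* was at 44.8, 42.9, 42.3 and 37.1 CPM in females and 53.4, 47.5 and 46.4 CPM in males. Here the males lay above the females, with a log2 fold change of 0.20 that fell to -0.01 when counts were scaled by library size alone. *Eif2ak3*, the gene of PERK, was at 14.3, 16.1, 26.9 and 29.2 CPM in females and 31.8, 27.6 and 28.7 CPM in males, with overlap between female replicate 4 and the males.

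The downstream factors varied too much between samples, or differed too little, for a difference between the sexes to pass the test. *Xbp1* was at 148, 468, 478 and 37.7 CPM in females and 639, 88.2 and 352 CPM in males. Its log2 fold change of 0.32 had a 95% confidence interval of -1.84 to 2.47 and became -0.03 without female replicate 4 and -0.38 without male replicate 2. *Atf4* was at 357, 191, 236 and 253 CPM in females and 242, 240.3 and 275 CPM in males. Its log2 fold change of -0.07 (95% confidence interval -0.57 to 0.43) became 0.14 without female replicate 1. *Creb3l2*, a related membrane-bound factor, was at 275 to 395 CPM in females and 351 to 425 CPM in males, with overlap. Counts per gene do not separate spliced from unspliced *Xbp1* messages, and do not show the translation of *Atf4* or the cleavage of ATF6.

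In the branch downstream of ATF4, edgeR's quasi-likelihood test called 0 of 4 genes, 1 was higher at an unadjusted p under 0.05, and DESeq2 called 1. That gene was *Trib3*, a pseudokinase gene induced by ATF4 and CHOP, at 3.12, 6.20, 7.27 and 7.31 CPM in females and 18.0, 16.1 and 12.2 CPM in males. The sexes did not overlap, and the mean was 2.58-fold higher in males (log2 fold change 1.33, SE 0.32, edgeR's quasi-likelihood adjusted p = 0.0776, DESeq2 adjusted p = 0.00439). *Ddit3*, the gene of the stress factor CHOP, was at 128, 76.5, 84.5 and 61.0 CPM in females and 89.2, 108 and 91.8 CPM in males. Its groups overlapped and its log2 fold change of 0.11 became -0.11 with scaling by library size alone. *Ppp1r15b*, which codes for a phosphatase subunit that reverses PERK signalling, was at 45.6 to 56.3 CPM in females and 45.9 to 59.1 CPM in males.

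**Figure D4:**
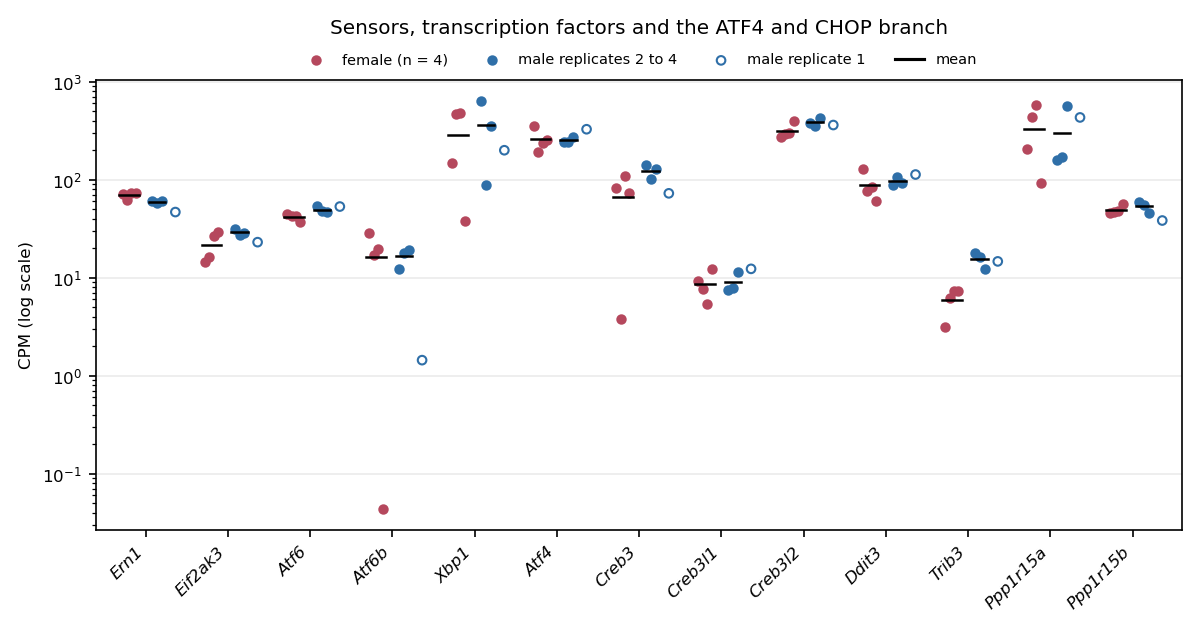
Level in CPM (log scale) of the 13 genes of sensors, transcription factors and the ATF4 and CHOP branch in each female (red), in male replicates 2 to 4 (blue) and in male replicate 1 (open), with the mean of each sex as a bar. *Trib3* is the only one of them with an unadjusted p under 0.05, *Ern1* is slightly lower in males, and *Xbp1*, *Atf6b* and *Creb3* scatter widely within females.

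In all, the males lay above the females without overlap in 16 of 44 genes (36.4%) and below them in 1, *Ern1*, where 11.5% and 10.8% of all genes tested did so. With scaling by library size alone these counts became 12 higher and 3 lower. The 16 were the 15 genes with an unadjusted p under 0.05 and *Atf6*. With male replicate 1 counted among the males, the 17 genes without overlap became 4.

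Male replicate 1 did not share the higher level of the module. Its 44 genes summed to 7854 CPM, below each of the other 7 samples. It lay below male replicates 2 to 4 in 25 of 44 genes and above them in 5, while 34.6% of all genes tested were below and 35.3% above. Among the 10 folding chaperones and co-chaperones it was below the 3 males in 9. *Hspa5* was at 1121 CPM, *Hsp90b1* at 444 CPM and *Pdia6* at 194 CPM in this sample, within the range of the females. *Dnajb9* at 87.0 CPM, *Creld2* at 30.3 CPM and *Pdia3* at 412 CPM were below all 7 others.

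In 11 of 44 genes male replicate 1 was below all 7 other samples and in 2 above all of them, beside 19.1% and 20.7% of all genes tested. *Dnajb11* was one of the 11, at 6.77 CPM in this sample and 63.0 to 88.4 CPM in the other 7. *Sdf2l1* was at 166 CPM and *Ern1* at 46.8 CPM there. The 2 genes above all others were *Syvn1* at 42.0 CPM and *Edem1* at 33.0 CPM, both of ERAD. *Trib3*, at 14.7 CPM, stayed within the range of the other males. This sample's high nuclear RNA level and low *Nr5a1* level, given above, moved with these values, and their part in them was not tested.

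Many genes of the module jumped between samples of the same sex. Of the 42 genes with a mean of at least 10 CPM, 13 (31.0%) differed at least 4-fold between the highest and the lowest sample of a sex, where 18.1% of all such genes did. They were *Hyou1*, *Manf*, *Canx*, *Uggt1*, *P4hb*, *Sec61b*, *Edem3*, *Derl2*, *Os9*, *Atf6b*, *Xbp1*, *Creb3* and *Ppp1r15a*. None of these 13 had an unadjusted p under 0.05 between the sexes in edgeR's quasi-likelihood test, and their standard errors on the log2 scale were 0.52 to 1.25. Since a wide spread within a sex makes a call less likely, these genes were not taken as unchanged.

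*Canx*, the gene of the membrane lectin chaperone calnexin, showed the widest jump among the males. It was at 983, 1321, 1607 and 1116 CPM in females and 2608, 2638 and 21.6 CPM in male replicates 2, 3 and 4. These levels rest on 475 of 24782710 counts in male replicate 4 and 69881 of 28621582 in male replicate 3, so that the depth of the libraries was similar. *P4hb*, the gene of the classical protein disulfide isomerase, was at 646 to 706 CPM in the 4 females, a tight range, and at 196, 916 and 207 CPM in the 3 males. *Atf6b* was at 28.3, 16.9 and 19.6 CPM in female replicates 1 to 3 and at 0.0432 CPM, a single count, in female replicate 4. *Creb3* was at 83.1, 109 and 72.3 CPM in 3 females and at 3.80 CPM in female replicate 2.

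Other genes jumped in both sexes. *Sec61b*, a translocon subunit gene, was at 10.2, 229, 204 and 14.9 CPM in females and 183, 202 and 14.6 CPM in males. *Uggt1*, whose product returns glycoproteins to calnexin and calreticulin, was at 3.68 to 6.49 CPM in 3 females and 60.3 CPM in female replicate 4, and at 6.23, 68.5 and 8.90 CPM in males. *Manf*, the gene of a secreted ER stress protein, was at 164, 35.6, 219 and 15.1 CPM in females and 332, 61.6 and 58.1 CPM in males. In *Sec61b* and *Uggt1* the samples fell into a high and a low set that did not follow sex, while *Manf* was spread more evenly.

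The samples that were low differed from gene to gene. Over the 13 genes, female replicates 1, 2, 3 and 4 were the lowest of their sex in 4, 4, 0 and 5 genes, and male replicates 2, 3 and 4 in 5, 4 and 4. They were the highest in 2, 1, 8 and 2 genes and in 6, 5 and 2. These tallies take both sexes of each gene, although 4 genes spread widely in females only and 4 in males only. *Os9*, an ERAD lectin gene, was at 171 and 160.4 CPM in female replicates 1 and 3 and 23.9 and 27.1 CPM in female replicates 2 and 4. *Hyou1*, the gene of the chaperone GRP170, was at 25.0 and 24.2 CPM in male replicates 2 and 4 and at 3.96 CPM in male replicate 3. The entries of these genes are named by assembled locus, and whether such jumps come from how reads were assigned to loci was not tested. The summed level of the lectin chaperones and disulfide isomerases in male replicate 4, 2683 CPM against 5724 and 6723 CPM in male replicates 2 and 3, included the low *Canx* value. *P4hb* was low in male replicates 2 and 4 alike, at 196 and 207 CPM.

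**Figure D5:**
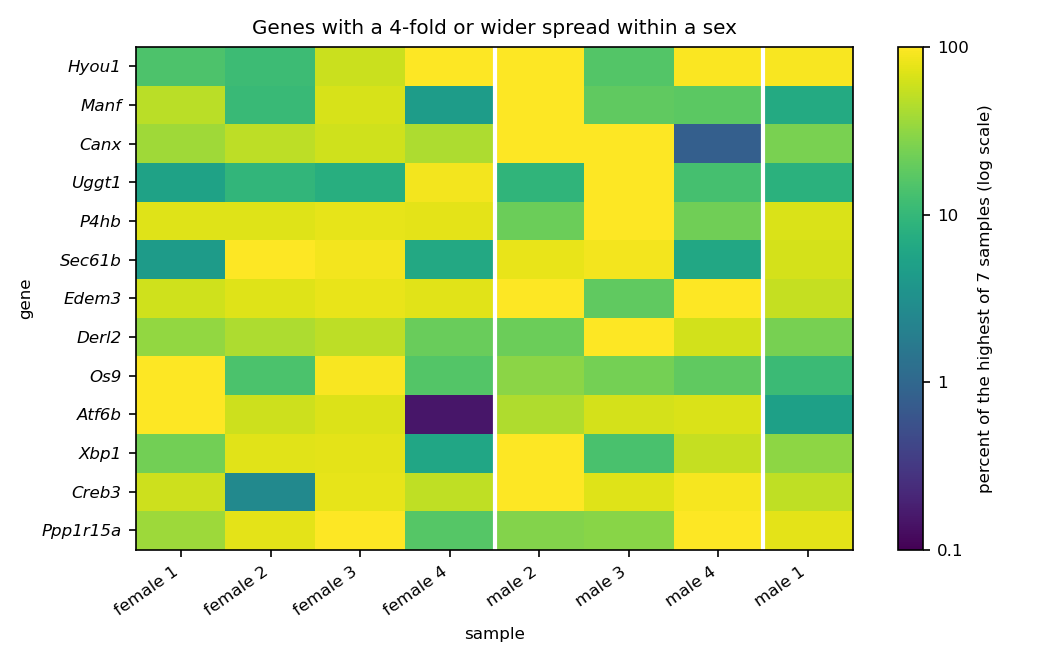
Level of the 13 genes with a 4-fold or wider spread within a sex, in each sample, as a percentage of the highest of the 7 samples compared (colour, log scale). Dark cells mark low samples, such as male replicate 4 for *Canx* and female replicate 4 for *Atf6b*, and they fall in different samples for different genes.

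Levels of different genes were compared per kilobase of annotated exon. In females the order began with *Calr* (274 ± 49.5 CPM per kb, SD, n = 4), *Canx* (268 ± 57.8), *Hspa5* (255 ± 103), *Sdf2l1* (252 ± 18.8) and *P4hb* (236 ± 9.92), whose values lay within the spread of their neighbours. *Pdia3* followed at 160.2 ± 16.5 CPM per kb, and then *Ppp1r15a* at 111 ± 73.9, *Atf4* at 110.01 ± 29.8 and *Hsp90b1* at 108 ± 8.19 CPM per kb, which lay within each other's spread. In males *Hspa5* came first at 747 ± 230.3 CPM per kb (SD, n = 3). It was followed by *Calr* at 381 ± 31.7, *Canx* at 374 ± 320.04 and *Sdf2l1* at 353 ± 31.8, which lay within each other's spread. The sensors were among the lower genes in both sexes, with *Ern1* at 8.54 ± 0.68, *Atf6* at 4.53 ± 0.35 and *Eif2ak3* at 3.59 ± 1.25 CPM per kb in females. *Uggt1*, *Hyou1* and *Derl3* had the 3 lowest means in both sexes, with wide spreads (1.47 ± 2.15, 1.56 ± 1.41 and 1.71 ± 1.53 CPM per kb in females). *Uggt1* and *Hyou1* were among the genes that jumped between samples.

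Outside the module, 123 further genes of ER import, glycosylation, folding, ERAD and stress signalling were examined, of which 120 had enough counts. Of these, 2 rose in males in edgeR's quasi-likelihood test and 0 fell, with 26 higher and 5 lower at an unadjusted p under 0.05, and DESeq2 called 18 higher and 2 lower. The 2 calls are 1.67% of these genes, near the 0.983% called higher over all genes tested, and at an unadjusted p under 0.05 21.7% were higher and 4.17% lower, beside 9.31% and 10.6%. For DESeq2 the shares were 15.0% and 1.67%, beside 5.29% and 6.27%. *Spcs3*, the gene of a signal peptidase subunit, was at 68.9, 126, 140.2 and 101 CPM in females and 363, 379 and 278 CPM in males (log2 fold change 1.61, edgeR's quasi-likelihood adjusted p = 0.0350). *Asns*, the asparagine synthetase gene and a known ATF4 target, was at 22.9, 20.3, 20.7 and 37.8 CPM in females and 69.8, 69.5 and 83.1 CPM in males (log2 fold change 1.51, edgeR's quasi-likelihood adjusted p = 0.0403). In both genes the sexes did not overlap, and in male replicate 1 both were lower than in the other males, at 103 and 11.0 CPM. With 1 sample left out at a time, *Spcs3* was called only without female replicate 1 (adjusted p 0.0373 to 0.122 in edgeR's quasi-likelihood test) and *Asns* only without female replicate 4 (0.0209 to 0.124).

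By list, to be read against the same shares, edgeR's quasi-likelihood test called 1 of 20 genes of translocation and signal peptidase (*Spcs3*; 4 higher and 1 lower at an unadjusted p under 0.05; DESeq2 4 and 1) and 1 of 23 genes of the integrated stress response (*Asns*; 8 and 1; DESeq2 6 and 1). It called 0 of 16 genes of glycan transfer and trimming (4 higher and 0 lower at an unadjusted p under 0.05; DESeq2 2 and 0) and 0 of 31 other folding and retrieval genes (5 and 2; DESeq2 4 and 0). It called 0 of 19 other ERAD genes (4 and 1; DESeq2 2 and 0) and 0 of 11 other sensor and outcome genes (1 and 0; DESeq2 0 and 0). The median log2 fold change of the 120 genes was 0.17, beside 0.44 for the module and -0.03 over all genes tested.

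Among the 5 called genes, *Hsp90b1*, *Creld2* and *Pdia6* held the complete ER stress element shown above, while no complete element was found in the windows of *Dnajb9* and *Pdia3*. Among the 31 genes with a promoter sequence that were not called, 6 held it. These 6 included *Hspa5*, *Dnajc3* and *Calr*, whose males lay above the females, but also *Syvn1*, *Derl3* and *Canx*, whose sexes overlapped. *Canx* varied widely among the males.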

How the data were processed

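Per the study's methods, the authors trimmed reads with cutadapt, aligned them to mm10 with STAR and counted them with featureCounts at default settings, which ignore strand; they deposited 1 table of raw counts for 55523 entries in 8 samples. Entries are named by gene symbol with an assembled locus or, for some, an Ensembl gene identifier. The locus form is one that transcript assembly gives and that these steps do not account for, so how reads were assigned to loci is not given in the sources used here. Reads of overlapping antisense genes cannot be told apart. The labels do not say whether samples came from separate animals, so p-values measure the spread between samples.

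Males (replicates 2 to 4) and females (1 to 4) were compared with edgeR 4.0.16 in R 4.3.3 (TMM factors, filterByExpr, quasi-likelihood test, Benjamini-Hochberg over 20152 genes, threshold 0.05). DESeq2 1.42.0, other scalings and filters, a replicate block, all 8 samples, counts per locus and each sample left out were alternatives. Single genes also had two-sided exact permutation tests on log2(CPM + 1). The steps were tested on simulated data whose planted changes were larger than those of the called genes, so recovery at their size was not tested. CPM per kb used GENCODE exon lengths. Full per-sample values are given for genes with an adjusted or unadjusted p under 0.05 or without overlap and for the main regulators. The members, lists and rules were chosen with earlier results of these data known. Motifs were searched with Python 3.11.15.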

Additional observations from a re-analysis of the deposited data

Results flagged for a closer look

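In 5 of 88 groups of 4 samples (44 genes in 2 sexes, with male replicate 1 included) the highest or lowest sample stood far from the other 3 by Dixon's criterion, where chance alone gives about 4.4. *Uggt1* was at 60.3 CPM in female replicate 4 (other females 3.68 to 6.49 CPM) and at 68.5 CPM in male replicate 3 (other males 5.68 to 8.90 CPM). *Manf* was at 332 CPM in male replicate 2 (other males 22.8 to 61.6 CPM). *Hyou1* was at 3.96 CPM in male replicate 3 (other males 23.3 to 25.0 CPM). *Ern1* was at 61.5 CPM in female replicate 2 (other females 71.8 to 73.4 CPM). The cause of these values was not tested.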

How the results depend on the processing

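The module had 5 genes called between the sexes, and DESeq2 gave 14 (all 5 among them), no filter on low counts 3, all 8 samples 0, a replicate block 0, and leaving out a sample 0 to 3. The further pathway genes had 2 calls, and DESeq2 gave 20, scaling by library size alone 4, a minimum of 10 counts per sample 6, no filter 0, all 8 samples 0, the replicate block 0, and leaving out a sample 0 to 2. All genes tested had 471 calls, and DESeq2 gave 2329, library size alone 808, no filter 177, all 8 samples 67, the replicate block 0, and leaving out a sample 88 to 171. The cause of these shifts was not tested. Same-numbered samples did not deviate together (correlations -0.02, -0.01 and -0.00081), so the numbers were not taken as pairs.

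Scaling by library size alone moved the median of all genes from -0.03 to -0.24 and the share of calls that were higher in males from 42.0% to 16.5%; 4 of the 5 module calls held and *Creld2* was lost. RLE or upper-quartile factors and counts summed per locus kept all 5. Genes without overlap fell from 17 (16 higher and 1 lower) to 4 with all 8 samples and became 15 (12 higher and 3 lower) with library size alone, and genes with a wide spread from 13 to 8 at an 8-fold threshold, chosen after seeing the data. Reversed were *Atf6* with library size alone (-0.0138), *Ddit3* with library size alone (-0.11) and over samples left out (-0.00867 to 0.365), *Xbp1* over samples left out (-0.38 to 0.78), and *Atf4* with all 8 samples (0.0610), with the replicate block (0.13) and over samples left out (-0.16 to 0.14); none was called. Of 391 values for single genes under the alternatives, 313 kept direction and call, 57 lost the call, 13 gained it and 8 reversed. At this depth 3 counts are at most 0.146 CPM.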
